A study of Homo sapiens with 2 samples.

Results

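The genes described here were the replication-dependent histone genes, taken as every peak whose gene identifier carries a GENCODE 29 symbol that starts with HIST1H, HIST2H, HIST3H or HIST4H and the type protein-coding. They gave 303 of 100792 peaks in replicate 1 and 290 of 109413 peaks in replicate 2, from 68 of the 71 annotated genes. Their peaks held 22026 of 1624888 reads summed over peaks in replicate 1 (1.36%) and 20735 of 1704925 in replicate 2 (1.22%). The 71 genes comprised 6 of class H1, 17 of class H2A, 18 of class H2B, 15 of class H3 and 15 of class H4. The members were taken by name and not by any measured value, though the set was chosen with earlier results of these data known.

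Cytoplasmic RNA of HEK293T, an established line derived from human embryonic kidney, was made into small-RNA libraries after the cells were kept in doxycycline at 3 ug/mL for 24 hours. The 2 libraries formed a single group labelled TRACER, a word the labels do not explain, as they do not name a doxycycline-driven gene; no input, untreated or control library was analysed here, so every value below is a description. The stated purpose was to find RNA elements in cis that associate with CCR4-NOT, the main deadenylase complex. The labels leave unsaid whether the replicates were separate cultures, and SDs between them may hold technical variation alone.

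Replication-dependent histone mRNAs are made in S phase, when new chromatin needs its core histones (H2A, H2B, H3, H4) and linker histones (H1). They are the metazoan mRNAs that lack a poly(A) tail: U7 snRNP directs a cut shortly after a conserved stem-loop, and the stem-loop binding protein SLBP stays on the end in place of poly(A)-binding protein. Their decay at the end of S phase starts with oligouridylation of that end and involves UPF1, the LSM ring and the exonuclease ERI1, and the genes occur in many near-identical copies in a few clusters.

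The stem-loop is shown first because the position of the peaks is described relative to it. It was searched on the transcript strand, in the 150 nt after the stop codon, as 16 nt of the histone stem-loop pattern: GG, 3 bases of any kind, TTT, 2 of any kind, A, 3 of any kind and CC, with at least 5 of 6 stem pairs (G-T counted). No other motif was searched there. It was found in 33 members, all with 6 of 6 pairs, and in 11 of 17616 other protein-coding genes with as much annotated sequence after the stop codon (0.0624%), among them H2AFX, a histone variant gene whose mRNA is known to end in either a stem-loop or a poly(A) tail. Its first base lay 23 to 68 nt after the stop codon, with a median of 37 nt. In 28 of them the RefSeq gene end lay close by, 4 to 18 nt past its last base with a median of 5 nt, and in the other 5 it lay farther on. For the other 38 members the annotated sequence held no match, which says only that these letters are not in the annotated stretch: 35 members had no exon of their own annotated after the stop codon, and 2 of those found a match through another annotated transcript. The sequences below come from GENCODE 29 transcripts on GRCh38 and run 5′ to 3′, with the 16 nt stem-loop in capitals and 5 nt of flank on each side.

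HIST1H2AC (H2A, chr6:26124664-26124689, plus strand): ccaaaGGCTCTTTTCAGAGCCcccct
HIST2H2AA3 (H2A, chr1:149842218-149842243, minus strand): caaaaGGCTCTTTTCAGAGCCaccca
HIST1H2BD (H2B, chr6:26158582-26158607, plus strand): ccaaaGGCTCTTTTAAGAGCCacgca
HIST2H2BE (H2B, chr1:149886183-149886208, minus strand): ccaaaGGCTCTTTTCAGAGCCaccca
HIST3H2BB (H2B, chr1:228458533-228458558, plus strand): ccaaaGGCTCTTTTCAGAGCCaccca
HIST2H3A (H3, chr1:149853100-149853125, plus strand): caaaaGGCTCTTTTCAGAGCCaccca
HIST3H3 (H3, chr1:228424848-228424873, minus strand): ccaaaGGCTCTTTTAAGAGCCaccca
HIST1H4E (H4, chr6:26204996-26205021, plus strand): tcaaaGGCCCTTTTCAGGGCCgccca
HIST2H4A (H4, chr1:149833027-149833052, plus strand): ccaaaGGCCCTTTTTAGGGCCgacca

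The form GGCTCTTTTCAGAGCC occurred in 7 H2A, 8 H2B and 4 H3 members. The form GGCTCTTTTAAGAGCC occurred in 3 H2B and 2 H3 members. HIST1H2AG, an H2A gene, was alone with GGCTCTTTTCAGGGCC, which has a G-T pair. All 8 H4 members with a match had a stem of GGCCC, 5 as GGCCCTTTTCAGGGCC and 3 as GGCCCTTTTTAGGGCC. H4 genes thus shared no form with the other core histones. Class H1 gave no match, and 4 of its 6 genes had no annotated exon after the stop codon.

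By gene entry, and with shared sequence included, peaks were listed almost throughout the family. Of the 71 annotated genes, 65 had peaks in both libraries (91.5%, exact 95% interval 82.5 to 96.8), against 56.9% of all annotated protein-coding genes. Members share sequence and are not independent, and the interval does not allow for that. The 3 without a peak in either library were HIST1H1T, HIST1H2AA and HIST1H2BA, the testis-type members of H1, H2A and H2B. HIST1H1B and HIST1H4F had peaks in replicate 1 only, with 6 and 8 reads, and HIST1H2AE in replicate 2 only, with 7 reads. Peaks outside shared sequence were present in both libraries in 38 of the 71 members by entry, and in 35 at own loci. The 56.9% of all protein-coding genes was not filtered in that way. The libraries are bulk RNA with no input, so fewer cells that make an mRNA, less of it per cell and less recovery cannot be told apart.

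Peaks of the histone genes repeated between libraries. In replicate 1, 270 of 303 peaks shared at least 1 nt with a histone peak of the other library (89.1%, exact 95% interval 85 to 92.4), and in replicate 2, 269 of 290 did (92.8%, 89.1 to 95.5); over all peaks the shares were 60.5% in replicate 1 and 55.8% in replicate 2. The intervals cover counting error only. Histone peaks were also deeper, with medians of 56 and 52 reads in replicates 1 and 2 against 6 and 6 reads over all peaks. At like depth the shares lay close together, and on either side in different libraries. For peaks of 50 or more reads, 99.4% and 98.6% of histone peaks repeated, against 98.7% and 99% of all peaks. For 10 to 49 reads it was 85.7% and 94.9% against 91.3% and 87.2%, and for 3 to 9 reads 45.2% and 48% against 47.9% and 41.3%. A deposited p-value at or under 1e-05 was held by 84.5% and 88.3% of histone peaks, against 33.5% and 36.1% of all peaks. Across the 71 members, summed reads of the libraries correlated as log2(reads + 1) with Pearson's r = 0.96 and Spearman's rho = 0.986; members share reads, so this is a description.

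A peak listed under a histone gene did not always lie at that gene. Reads at the entry's own locus, from 100 nt before the start codon to 100 nt past the stop codon, made up 81.4% of histone peak reads in replicate 1 and 81.5% in replicate 2, and 18.2% and 18.1% lay at the locus of another histone gene. Entries with peaks at another member were 4 in number. HIST2H2BE, an H2B gene, was listed with 2914 and 2480 reads in replicates 1 and 2, of which 299 and 217 lay at its own locus, 1391 and 1276 at HIST2H2AA3, and 1155 and 924 at HIST2H4B; the other 69 and 63 lay at no member, at a stretch that holds the H2B pseudogene HIST2H2BC. HIST1H2BB was listed with 1103 and 1140 reads, of which 39 and 23 were its own and 877 and 957 lay at the linker histone gene HIST1H1C. HIST1H3J had no peak at its own locus in either library, which leaves 64 members with own-locus peaks in both, and its 281 and 292 reads all lay at HIST1H2AM. HIST1H2BN had 130 and 131 own reads beside 116 and 136 at HIST1H2AL. Since those loci are also listed under their own entries, their reads appear in the lists more than once.

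The same locus read through a wider entry gave other peaks. At HIST1H1C, the own entry held 7 peaks in each library with 622 and 625 reads that covered 28.5% and 27.3% of the coding sequence (CDS), while the entry HIST1H2BB held 9 and 12 peaks there with 877 and 957 reads over 65.9% and 62.1% of it. The leading peak of replicate 1 at that locus had 137 reads and a deposited p of 1.02e-23 under the own entry, and 145 reads and a p of 1.34e-222 under HIST1H2BB. At HIST2H2AA3, the own entry covered 34.6% and 35.9% of the CDS in replicates 1 and 2, and HIST2H2BE covered 94.7% and 100%. Of 9 loci with a peak under a further entry, 7 had more of the CDS covered under it in both libraries, HIST2H4B had the same, and HIST1H3D less. Both the deposited p-values and the share of a histone CDS that counts as peak thus moved with the entry at loci where the RNA was the same. Counting peaks of any entry on the strand, 29.3% of all histone coding bases lay under peaks of both libraries, against 25.9% with own entries alone.

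**Figure D1:**
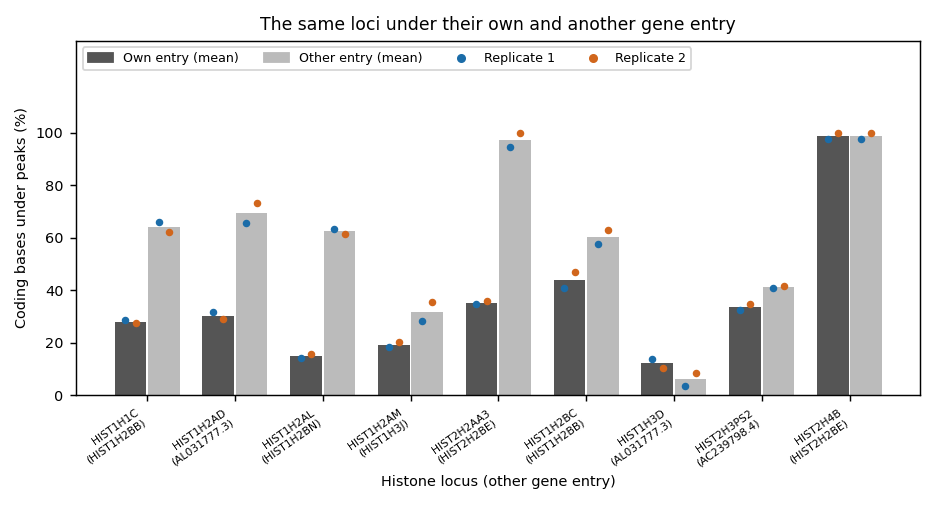
Percent of coding bases under peaks (y axis) at the 9 histone loci that were listed under their own gene entry (dark bars) and a further one named in brackets (light bars); bars are means of 2 libraries and points are replicates. HIST2H2AA3 had 34.6% and 35.9% covered under its own entry and 94.7% and 100% under HIST2H2BE.

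Genes of the HIST2 cluster carried more peak reads per gene than those of the other clusters. The 12 HIST2H genes held 51.9% ± 0.524 (SD, n = 2 libraries) of own-locus histone reads, with medians of 646 and 598 reads per gene in replicates 1 and 2. The 55 HIST1H genes held 45% ± 0.282, with medians of 58 and 54. The 3 HIST3H genes held 2.35% ± 0.212, and HIST4H4 held 0.718% ± 0.0301. Of the HIST2H reads, 96.3% and 96.1% lay in sequence shared with another histone gene, against 36.4% and 34.3% of the HIST1H reads. The part of such reads in the difference between clusters was not tested. Clusters, and the classes below, were also not matched for annotated exons after the stop codon, and the part of these was not tested.

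**Figure D2:**
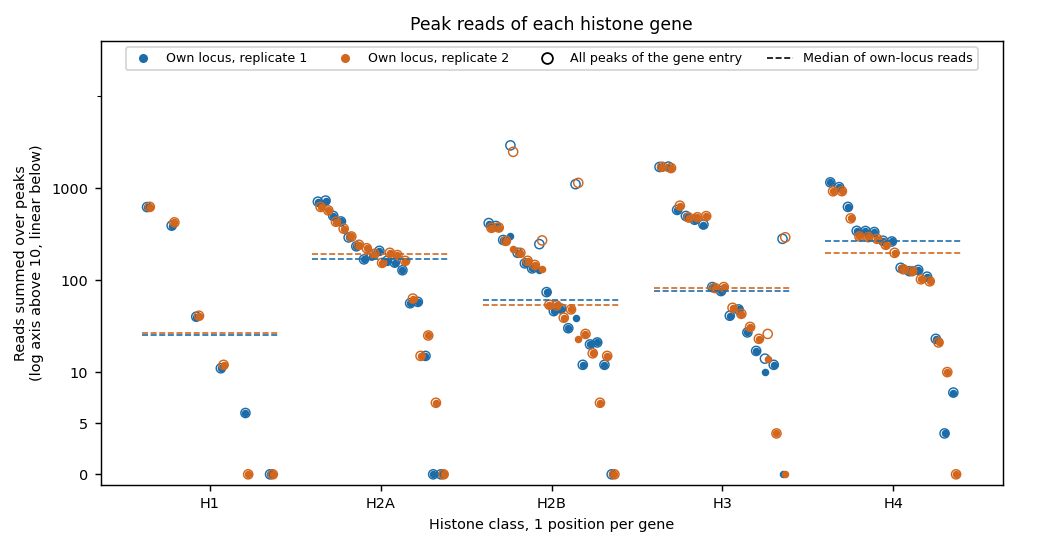
Reads summed over peaks (y axis, log above 10 and linear below) for each of the 71 histone genes, grouped by class and ordered by own-locus reads; filled points are reads at the own locus, open points all peaks of the gene entry, dashed lines class medians, blue replicate 1 and orange replicate 2. The open points far above their filled ones are HIST2H2BE, HIST1H2BB and HIST1H3J.

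By class, core histones H3 and H4 held most of the own-locus reads. H3 held 32.9% ± 1.92 (SD, n = 2 libraries), H4 25.8% ± 2.04, H2A 22.4% ± 0.2, H2B 12.7% ± 0.0645 and H1 6.24% ± 0.391. Read by gene entry in place of locus, the H2B share was 27.5% ± 0.232 and H3 28.2% ± 1.71, since 3 of the 4 entries that reach over other histone genes are H2B genes. The class shares turned on the peaks in sequence shared with another histone gene. Without those peaks, read by gene entry, H2B held 29.5%, H4 23.3%, H2A 19.9%, H1 14.8% and H3 12.5%, so that H3 had the smallest share in place of the largest, and H1 held 14.8% against 5.09% with all peaks. That H2B share takes in the entry HIST1H2BB, whose 877 and 957 reads at the H1 gene HIST1H1C lay almost all outside shared sequence. Peaks at no member locus also counted as outside it, and the same shares were not computed at own loci. Per 100 nt of CDS, the median member had 84.3 and 63.5 own-locus reads in H4, 43.4 and 49.1 in H2A, 18.5 and 20 in H3, 16.1 and 14 in H2B, and 3.85 and 4 in H1. The order of the medians was the same in both libraries, with H3 and H2B close to each other. The H3 total came from few genes: HIST2H3A and HIST2H3C alone had 1698 and 1713 of 5658 H3 reads in replicate 1, and 1706 and 1653 of 5791 in replicate 2.

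Linker histones H1 package the DNA between nucleosomes. HIST1H1C had 622 and 625 reads in replicates 1 and 2, and HIST1H1E 391 and 424. HIST1H1D followed with 40 and 41 reads, HIST1H1A with 11 and 12. HIST1H1C and HIST1H1E stood above the other H1 genes in both libraries. H1 was also the class with the least shared sequence: 5.33% and 1.09% of its reads lay in 20 nt found in another member, and those of HIST1H1C and HIST1H1D not at all. All 20 and 19 H1 summits lay in the CDS. The 30 nt around the leading summits of both genes are shown with the 20 nt used for matching in capitals; each of these 20 nt occurs at 1 place in the annotated transcripts.

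HIST1H1C (chr6:26056211-26056240, minus strand, replicate 2, 189 reads): aaaagCGTTGGCTGCCGCCGGCTATgatgt
HIST1H1E (chr6:26156591-26156620, plus strand, replicate 2, 182 reads): agccgCTGGCTATGACGTGGAGAAGaacaa

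H2A and H2B pair as a dimer on the outer faces of the nucleosome. Among H2A genes, HIST2H2AA3 had 732 and 573 reads in replicates 1 and 2, HIST2H2AA4 712 and 624, HIST2H2AC 499 and 431, and HIST1H2AC 434 and 362. HIST2H2AA3 and HIST2H2AA4 have identical CDSs, so their reads cannot be assigned to one of them, and of HIST2H2AC all own reads lay in shared 20 nt. In contrast 4.4% of the own reads of HIST1H2AC lay in shared sequence. Among H2B genes at their own locus, HIST1H2BD had 410 and 365 reads and HIST2H2BF 388 and 373. HIST1H2BJ had 273 and 267, and HIST2H2BE 299 and 217, an order that differed between libraries. The lone H2A and H2B genes of the HIST3 cluster had 185 and 193 reads (HIST3H2A) and 134 and 146 reads (HIST3H2BB). The leading windows of the classes are given with the matched 20 nt in capitals: that of HIST2H2AA3 occurs at 3 annotated places, in HIST2H2AA4 and HIST2H2AC too, and that of HIST1H2BD at 1.

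HIST2H2AA3 (chr1:149842403-149842432, minus strand, replicate 1, 232 reads): caacgACGAGGAACTGAACAAGCTGctggg
HIST1H2BD (chr6:26158228-26158257, plus strand, replicate 2, 141 reads): ctaagGCTCAGAAGAAGGACGGGAAgaagc

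H3 and H4 form the tetramer at the centre of the nucleosome. HIST2H3A had 1698 and 1706 reads and HIST2H3C 1713 and 1653, the most of any histone gene at its own locus. HIST2H3D had 579 and 644, and HIST1H3H 498 and 479. HIST2H3A and HIST2H3C have identical CDSs, and the peak nearest their stop codons had 202 reads at both in replicate 1 and 203 at both in replicate 2. Over the 4 identical pairs with matched summits (within 5 nt), 14 peaks of HIST2H3A and HIST2H3C differed by at most 15% of reads, 7 of HIST2H2AA3 and HIST2H2AA4 by at most 14.8%, 12 of HIST2H4A and HIST2H4B by at most 24.4%, and 4 of the H4 genes HIST1H4J and HIST1H4K by at most 5.15%. Apart from HIST1H3J, the fewest own reads among H3 genes, summed over both libraries, were those of HIST1H3G, with 12 and 4. HIST3H3, a gene known from testis, had a single peak of 76 and 84 reads in replicates 1 and 2, and none of its reads lay outside shared sequence.

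The peak of HIST3H3 shows why copies cannot be told apart. Nucleotides 250 to 279 of the CDS are given for 4 H3 genes, with bases that differ from HIST2H3D in capitals.

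HIST2H3D (chr1:149813403-149813432, minus strand): cgcttccagagctcggccgtgatggcgctg
HIST2H3A (chr1:149852904-149852933, plus strand): cgcttccagagctcggccgtgatggcgctg
HIST3H3 (chr1:228425047-228425076, minus strand): cgcttccagagctcggccgtgatggcgctg
HIST1H3H (chr6:27810323-27810352, plus strand): cgcttccagagctcCgcGgtgatggcgctg

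The 30 nt were the same in HIST2H3D, HIST2H3A, HIST2H3C, HIST2H3PS2 and HIST3H3. The largest own peak over them had 279 and 344 reads in HIST2H3D, 251 and 314 in HIST2H3C, 245 and 267 in HIST2H3A, 122 and 134 in HIST2H3PS2, and 76 and 84 in HIST3H3. In HIST1H3B and HIST1H3H, which each differ at 2 of the 30 bases, it had 208 and 239 reads (HIST1H3B) and 58 and 66 (HIST1H3H), so that HIST1H3B stood above HIST2H3PS2 and HIST3H3. The order of the 5 genes with the same letters was alike in both libraries, although these letters cannot tell them apart. These are reads of whole peaks, which differed in width. The peak of HIST2H3D, first in order, ran over nucleotides 248 to 327 in replicate 1 and 242 to 326 in replicate 2. That of HIST3H3, last in order, ran over 249 to 284 and 249 to 286. The part of peak width in the order was not tested.

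Among H4 genes, HIST2H4B had 1155 and 924 reads in replicates 1 and 2 and HIST2H4A 1025 and 927, an identical pair whose reads cannot be told apart. HIST1H4E had 625 and 469 reads and HIST1H4B 343 and 298. HIST4H4, the only gene of its cluster, had 125 in each library. None of the reads of HIST1H4E lay in 20 nt shared with another member, and 28.7% of those of HIST1H4B did. The CDS of HIST2H4A was covered over its whole length in both libraries, and that of HIST1H4E over 57.1%. Nucleotides 7 to 36 of the CDS show how far these genes differ, with bases that differ from HIST2H4A in capitals.

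HIST2H4A (chr1:149832691-149832720, plus strand): ggcagaggaaagggcggaaaaggcttaggc
HIST1H4E (chr6:26204651-26204680, plus strand): ggTCgCggCaaAggcggaaaGggACtGggT
HIST1H4B (chr6:26027217-26027246, minus strand): ggTCgCggCaaAggcggTaaaggTttGggT
HIST4H4 (chr12:14771049-14771078, minus strand): ggGCgaggTaaAggTggCaaGggGCtGggT

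HIST1H4E differed from HIST2H4A at 10 of the 30 bases, HIST1H4B at 9 and HIST4H4 at 11. The first part of the CDS was the most often covered place in H4: nucleotides 11 to 33 lay under peaks of both libraries in 11 of the 14 genes with a CDS of 312 nt, stop codon included. At the middle of that run, 7 of these 11 genes had 20 nt that occur at a single annotated place. In H2B the most often covered run was nucleotides 219 to 225, in 13 of 17 genes, 7 of them with 20 nt of a single place. In H3 it was nucleotides 274 to 279, in 9 of 15 genes, all 9 in sequence with more than 1 annotated place. In H2A it was nucleotides 128 to 132, in 8 of 13 genes, 5 of them with a single place. Runs covered in no gene reached 14 nt in H2A (nucleotides 319 to 332) and 15 nt in H2B (246 to 260). Over the H2B run, 10 to 14 of the 17 genes had 20 nt with more than 5 annotated places. Over nucleotides 219 to 225, 0 to 2 did. In the H2A run, 0 of 13 genes did at the first base and 4 at the last. The name of the lists states a limit of 5 loci per read, and its part in the H2B run was not tested.

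Much of the histone signal could not be given to a single gene: 67.4% and 66.7% of own-locus reads in replicates 1 and 2 fell in peaks whose 20 nt around the summit also occur in another histone gene. The share was highest in H3, at 89.5% and 88.7%, and lay at 64.7% and 62.7% in H2A, 62.1% and 64.4% in H4, and 57.7% and 52.2% in H2B. Of the 67 members with own reads, 25 had all of them in shared 20 nt and 10 had none. At least 1 own peak outside shared sequence was present in both libraries in 35 members: 3 of H1, 9 of H2A, 10 of H2B, 5 of H3 and 8 of H4. Coding bases with a single annotated place for their 20 nt were under peaks of both libraries in 17.1% of cases, against 38.4% with 2 places, 42.7% with 3 to 5, and 34.1% with 6 or more. The name of the deposited lists states a limit of 5 loci per read, and how reads with several loci were counted is not given in the sources used here.

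**Figure D3:**
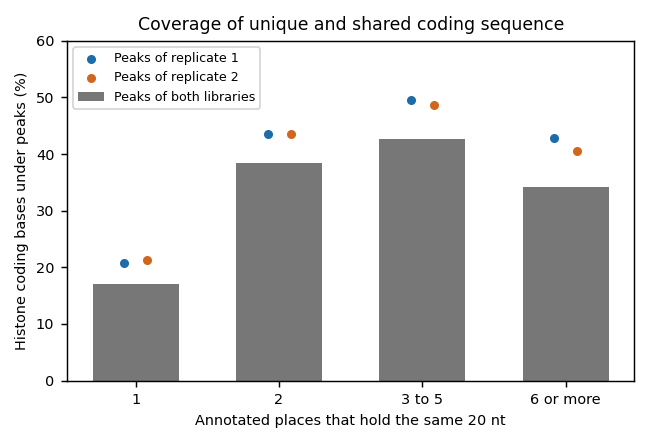
Percent of histone coding bases under peaks (y axis) by the number of places in the annotated transcripts that hold the same 20 nt (x axis); bars are bases under peaks of both libraries and points are each replicate. Bars stand at 17.1% for 1 place, 38.4% for 2, 42.7% for 3 to 5 and 34.1% for 6 or more.

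Histone peaks lay mostly in the CDS. Of the 252 and 240 summits at own loci, 94.4% and 94.6% were between the start and stop codons, 2.38% and 1.67% before the start codon, and 3.17% and 3.75% between the stop codon and the end of the stem-loop (or 100 nt past the stop codon where none was found), with 0 beyond it within the locus in either library. The locus ended 100 nt past the stop codon, so only members with a stem-loop found could have had a summit beyond it. By the annotation of each entry, 78.5% and 78.3% of all histone summits were in the CDS of the entry's own gene, against 43.0% and 45.0% of the summits of all protein-coding entries, and 2.64% and 3.1% were in its 3′ UTR, against 38.1% and 37.6% for the other protein-coding entries. The histone transcripts have short 3′ UTRs, and 35 of the 71 genes have none annotated, so these shares were not drawn from like lengths. The 173 own peaks of those 35 genes never crossed the stop codon, where their own annotation ends. Counting peaks of any entry, the stop codon lay under peaks of both libraries in 2 of the 35. Of the 35, only HIST1H1C, HIST1H2AD, HIST1H2AL, HIST1H2AM, HIST1H3D and HIST2H3PS2 had peaks under a further entry. For the rest this count could not differ from that of own entries. Peaks at HIST1H2AM ended 15 and 16 nt past it under HIST1H3J, and those at HIST1H2AD 15 and 18 nt past it under AL031777.3. Of the coding bases of the 35 genes, 12.3% were under own peaks of both libraries, against 40.1% in the 36 genes with an annotated exon after the stop codon. The annotated extent and the RNA cannot be told apart in that difference.

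**Figure D4:**
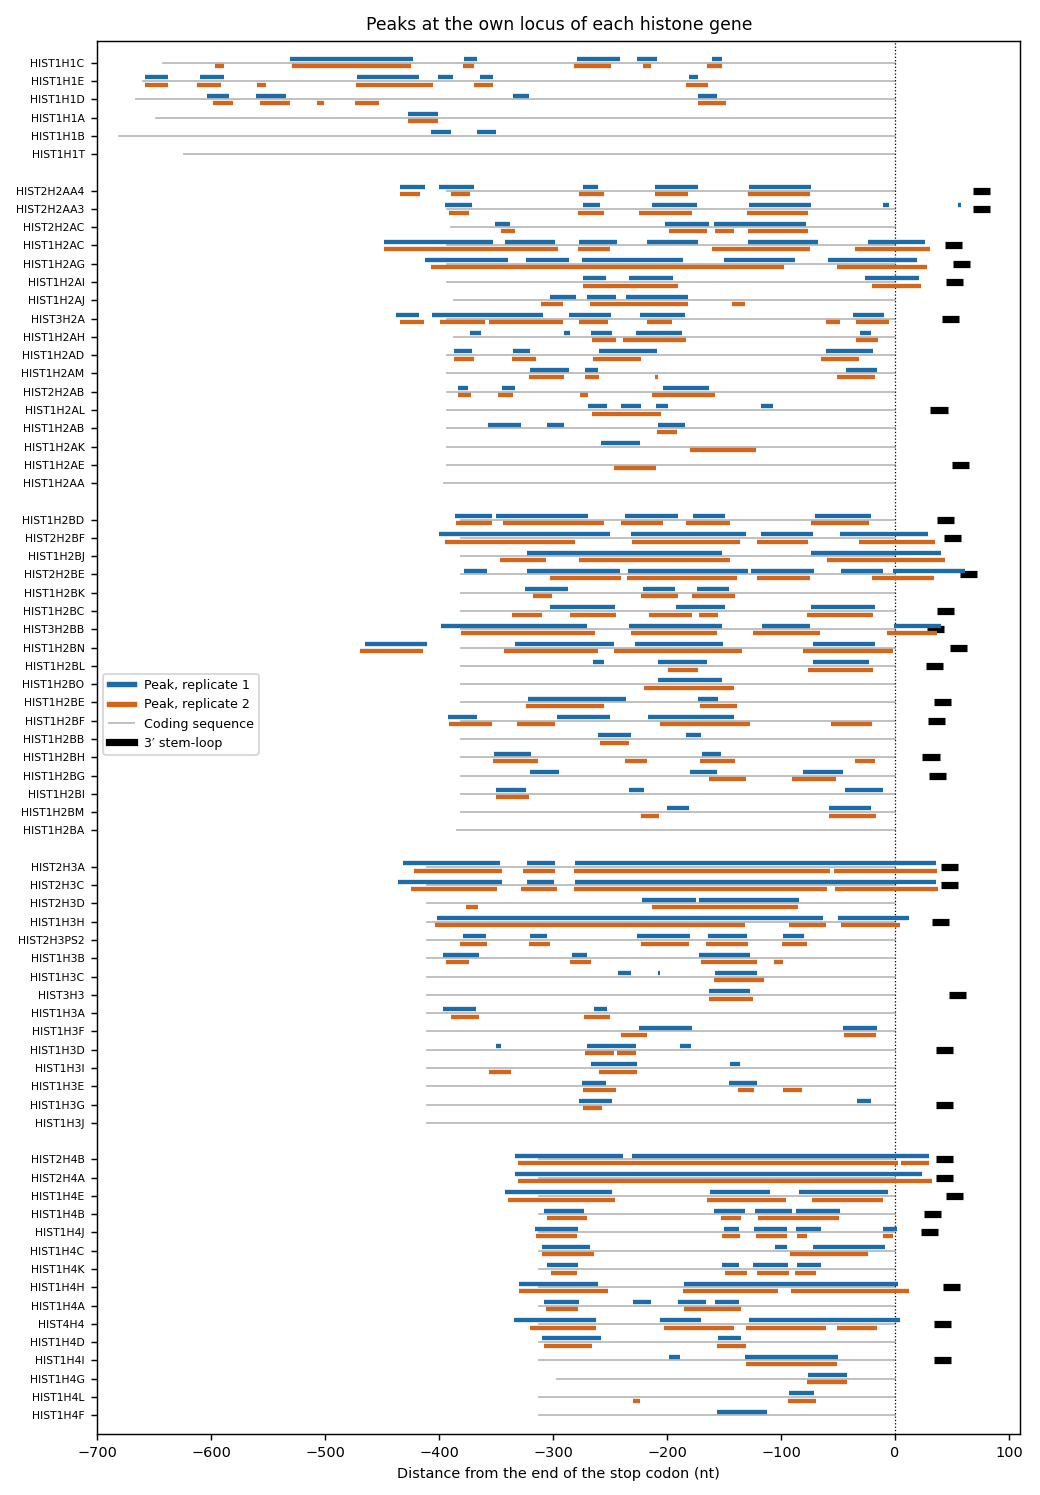
Own-locus peaks of the 71 histone genes as bars on each gene, by distance from the end of the stop codon (x axis, nt), with the CDS in grey, 3′ stem-loops in black, replicate 1 above in blue and replicate 2 below in orange. Most peaks lie within the CDS, those of some genes run past the start or stop codon, and HIST3H2BB is the gene whose stem-loop is overlapped in both libraries.

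The start codon lay under peaks of both libraries in 18 of the 65 members with peaks in both (27.7%, exact 95% interval 17.3 to 40.2), against 12.7% of protein-coding genes with peaks in both. All 18 were among the 33 members with an annotated 5′ UTR. The stop codon did in 14 of 65 (21.5%, 12.3 to 33.5), against 9.32%, and all 14 were among the 36 members with an annotated exon after it. Both intervals began above the share of all protein-coding genes, but members share sequence and are not independent. Both also held 25.9%, the share of all histone coding bases under own peaks of both libraries. The comparison with all protein-coding genes was not matched for read depth or CDS length. Counting peaks of any entry on the strand, 21 start codons and 17 stop codons lay under peaks of both.

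The stem-loop was rarely reached. Of the 31 members with a stem-loop in their own exons, 13 had the stop codon under peaks of both libraries, but 1 had any base of the stem-loop under peaks of both (3.23%, exact 95% interval 0.0816 to 16.7), and in 0 was it covered whole. That member was HIST3H2BB, whose last peak had 15 reads in replicate 1 and 14 in replicate 2 and took in 13 and 10 of the 16 nt. In replicate 1, a peak of HIST2H2BE took in 5 of its 16 nt. Counting peaks of any entry on the strand added HIST2H2AA3, where peaks listed under HIST2H2BE took in 10 nt in replicate 1 and 6 nt in replicate 2.

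Several members with many reads had peaks that ended just before it. Measured between its last base and the first base of the stem-loop, the last peak of HIST2H3A ended 4 nt before the stem-loop in replicate 1 and 3 nt before it in replicate 2, and that of HIST2H3C 4 and 2 nt before. In HIST2H4B the gap was 6 nt in both libraries, and in HIST2H4A 12 and 4 nt. Each of these is a pair with identical CDSs whose reads cannot be told apart. The gaps within a pair are thus not separate observations, and both copies enter the median and the counts that follow. Over the 13 members with the stop codon covered, the median gap was 14 nt in replicate 1 and 13 nt in replicate 2. Peak ends ranged from 39 nt before the first base of the stem-loop to 12 nt past it in replicate 1, and from 30 nt before to 9 nt past it in replicate 2. Of the 31 genes, 16 lay under peaks of both libraries at 70 nt before the stem-loop, 11 at 40 nt, 7 at 20 nt, 4 at 10 nt, 1 at its first base and 0 at 10 nt past that base. In the 17 members with a stem-loop in their own exons and at least 400 nt of annotated exon after the stop codon, which includes forms with long 3′ ends, no summit lay between the end of the stem-loop and the end of those 400 nt in either library.

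**Figure D5:**
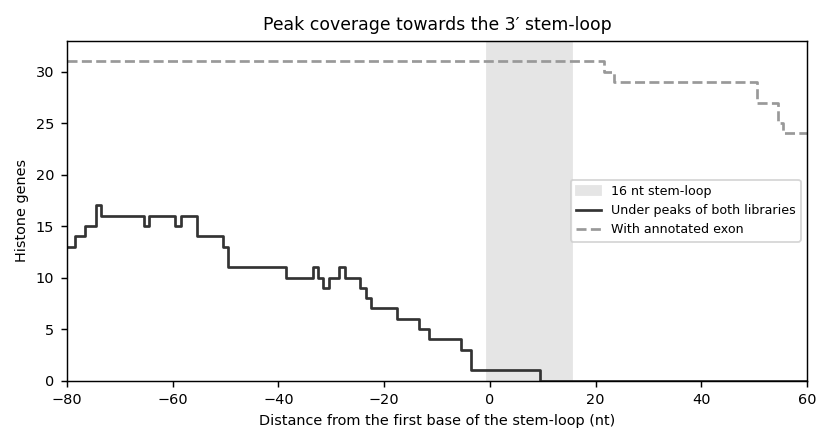
Number of histone genes (y axis, of 31 with a stem-loop in their own exons) under peaks of both libraries, by distance from the first base of the 16 nt stem-loop (x axis, nt; grey band is the stem-loop); the dashed line is the number of genes with annotated exon there. The number falls to 4 at 10 nt before the stem-loop and to 1 at its first base.

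With no input library, loss of reads at a short structured end and lack of signal there cannot be told apart. Base composition differed little between the windows and the genes: the 30 nt around histone summits had a median GC content of 63.3% in both libraries, and the CDSs 60.9%.

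Replication-independent histones replace or vary the canonical ones, and most are made through the cell cycle from polyadenylated mRNAs. All 12 listed had peaks in both libraries, among them H2AFX, which has the stem-loop match given above. The median percent of reads in the 3′ UTR was 0 and 0 in the replication-dependent genes and 28.1 and 30.4 in the replication-independent ones, and in the CDS 100 and 100 against 40.6 and 41.9. H3F3B, which encodes the variant H3.3, had 908 and 1344 reads, with 48.1% and 47.9% in the 3′ UTR. H2AFZ (H2A.Z) had 686 and 647 reads with 18.8% and 20.6% there, H1F0 449 and 660 with 82.6% and 79.5%, and H3F3C 366 and 525 with 28.1% and 25.5%. The share was not scaled to length. Regions were those annotated for each gene, and 35 of the 71 replication-dependent genes have no exon annotated after the stop codon. Their share in the 3′ UTR was thus 0 whatever the RNA, and the medians of 0 and 100 rest in part on the annotation.

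Messenger RNAs of the factors that make and destroy histone mRNA were themselves listed. Of 13 genes for 3′ processing, 12 had peaks in both libraries. SLBP led with 180 and 304 reads, followed by SRRT with 145 and 134, CPSF2 with 68 and 85 and CPSF3, the endonuclease, with 74 and 79. ZNF473 was at 0 in replicate 1 and 21 in replicate 2. All 19 annotated genes listed for histone mRNA translation and decay had peaks in both. That list takes in every gene from LSM1 to LSM8, and the part of each in histone mRNA decay was not tested. The most reads were on LSM8 with 228 and 345, LSM7 with 148 and 147, DCP2, a decapping enzyme, with 108 and 165, and LSM6 with 132 and 127. These are reads on the factors' own mRNAs.

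Markers fixed for the cell line were present in part: VIM had 494 and 517 reads in replicates 1 and 2, NEFL 83 and 139, NEFM 75 and 68, KRT18 32 and 47 and KRT8 0 and 5, while 9 of 9 markers of liver, erythroid, leukocyte, fibroblast and islet cells were at 0 in both. On the opposite strand of histone loci there were 0 peaks in either library. The lncRNA entries AC239798.4 and AL031777.3 lie over histone genes on the same strand and held 10 peaks with 689 reads in replicate 1 and 13 with 807 in replicate 2.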

How the data were processed

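Each library had 1 deposited list of peaks, called by the authors per library and not pooled. Per the submitters' processing notes, cutadapt 4.2, UMI-tools 1.1.4 and STAR 2.7.11 were used on GRCh38; per the file names, CLIPper called the peaks and reads had at most 5 loci. CLIPper's version and gene models are not stated in these sources. The score column held a deposited p-value per peak, all under 0.05, and each peak name a whole read count, at least 3 here, which is not normalised. Sums over peaks are not depth; total reads are unknown from these lists, which limits every share to counting error within peaks.

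Members were matched to GENCODE 29 by gene identifier without version; 66 of 68 had the same version. Summits were taken at the centre of each peak's thick interval. An own locus ran from 100 nt before the start codon to 100 nt past the stop codon. Shared sequence was 20 nt around the summit, or the nearest 20 nt of annotated sequence, found in another member. Stem-loop search, overlaps and the locus index were tested on simulated data. Coordinates are 1-based. The library names carry the numbers 3 (replicate 1) and 2 (replicate 2), and the titles' numbers were used. No test was run, as there was 1 group; intervals are exact (Clopper-Pearson). The members and lists were chosen with earlier results of these data known. Genes named are, per class, the 4 with the most reads by entry, the fewest, those with a stem-loop under peaks of both libraries, HIST4H4 and the HIST3H genes, and the 4 leading genes of each list; HIST1H3J, HIST1H3B, HIST1H2BJ, HIST1H2BN, HIST1H4J, HIST1H4K and loci under 2 entries were named after their values were seen. Software: Python 3.11.15, numpy 2.4.6, pandas 2.3.3, scipy 1.17.1, matplotlib 3.10.9.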

Additional observations from a re-analysis of the deposited data

Results flagged for a closer look

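Histone pseudogene entries, outside the members, also carried peaks, with no control library to set them against. HIST2H3DP1, an H3 pseudogene of the HIST2 cluster, was listed with 607 reads in replicate 1 and 629 in replicate 2. All histone pseudogene entries together held 1253 reads in replicate 1 and 1226 in replicate 2. Reads shared with the coding copies were not separated.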

How the results depend on the processing

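Of the alternatives to the 13 values reported by gene entry, 57 left the value within 1 SD of the libraries (or 1.5 times for counts) and 38 moved it. The cause of a move was not tested beyond what the setting removes. No paired analysis was possible because there was 1 group. Settings chosen after seeing the data were the own locus, the locus under the summit and peaks of any entry.

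Repeated peaks, 90.9% in the mean, came to 93.9% at a p at or under 1e-05, 94.6% with 10 reads or more, 87.5% without shared sequence and 87.4% with 50% overlap. Without shared sequence, also by entry, H1 held 14.8% of reads, H2A 19.9%, H2B 29.5%, H3 12.5% and H4 23.3%, against 5.09%, 18.2%, 27.5%, 28.2% and 21% with all peaks, so H3 was first with all peaks and last without shared sequence. The H2B shares by entry take in HIST1H2BB reads at the H1 gene HIST1H1C. At own loci the shares were 6.24%, 22.4%, 12.7%, 32.9% and 25.8%; by the locus under the summit H1 held 9.38%, H2A 26.4%, H2B 11.2% and H4 25.9%. H2A held 18% at the stricter p. Summits in the CDS, 91.9%, came to 92.2% at the stricter p, 92.5% with 10 reads, 87.1% without shared sequence, 94.5% at own loci and 93.9% weighted by reads. Between stop codon and stem-loop end, 3.55% came to 4.1% and 3.91% at the stricter p and 10 reads. Before the start codon, 2.02% came to 3.8% without shared sequence. Summits at no member locus, 2.53%, came to 1.56%, 1.31%, 5.68%, 0% and 0.389% in the same order of settings. The 0% at own loci was fixed by that setting, which leaves such summits out. Reads in shared sequence, 66.7%, came to 60.5% with 30 nt and 58.6% with the whole peak. Genes with peaks in both libraries numbered 38 without shared sequence, against 65. Stem-loops under peaks, 1, came to 0 when covered whole, 2 with peaks of any entry and 1 to 2 when 1 replicate was left out.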
